A study of Mus musculus with 7 samples.

Results

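Polyamines (putrescine, spermidine and spermine) are small positively charged molecules that bind RNA and DNA and are needed for cell growth and translation. The polyamine synthesis and catabolism genes described here are 10 named genes, chosen by symbol: Odc1, Amd1, Srm and Sms encode the enzymes of synthesis, Azin1, Oaz1 and Oaz2 encode proteins that control ornithine decarboxylase, and Sat1, Smox and Paox encode the enzymes of acetylation and oxidation. They were chosen with earlier results of these data known. All 10 were found among the 42256 gene rows of the count table, and all 10 passed the filter on low counts that left 17964 genes for testing. The RNA came from whole kidneys of adult male mice on a mixed background of 129S1/Sv x C57BL/6, with 3 libraries labelled CDH11+/+ (wild type, below WT-labelled) and 4 labelled CDH11-/- (knockout, below KO-labelled). Every mouse in both groups had lost a kidney by uninephrectomy and carried an osmotic pump delivering angiotensin II at 800 ng/kg/min, and kidneys were taken 4 weeks after surgery. No library came from an uninjured mouse, and the labels do not describe the Cdh11 allele. Replicate numbers follow the order of deposit, are not from the labels, and only name libraries.

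Ornithine decarboxylase (Odc1) makes putrescine and is the rate-limiting, very short-lived first enzyme of the pathway. S-adenosylmethionine decarboxylase (Amd1) supplies the aminopropyl groups that spermidine synthase (Srm) and spermine synthase (Sms) attach. Antizymes (Oaz1, Oaz2) bind ornithine decarboxylase and send it to the proteasome, the antizyme inhibitor (Azin1) binds the antizymes in its place, and Sat1, Smox and Paox return the longer polyamines to shorter ones. In the mouse kidney Odc1 is a classic androgen-responsive gene of proximal tubule cells.

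The libraries held between 72087906 and 84786351 counts, and levels are given as CPM, counts scaled to the library size after TMM adjustment. Cdh11 was not lower in the libraries labelled knockout: it stood at 6.79, 4.52 and 10.8 CPM in WT-labelled replicates 1 to 3 and at 11.3, 9.56, 11.6 and 11.0 CPM in KO-labelled replicates 1 to 4. This difference was not called (log2 fold change 0.56, SE 0.255, edgeR adjusted p = 0.14), but it was called higher without WT-labelled replicate 3 (0.93, adjusted p = 0.0043), with 1 surrogate variable (0.57, adjusted p = 0.00947) and with limma-voom (0.75, adjusted p = 0.0227), so each group is named below only by its label. Wild-type-labelled replicate 3 also stood apart in the summed level of 4 Y-linked genes, at 64.7 CPM against 111 to 144.9 CPM in the other 6 libraries. Mitochondrial ribosomal RNA took 13.5% to 18.2% of all counts in the WT-labelled libraries and 10.7% to 13.5% in the other. The summed level of 10 proximal tubule markers ran from 9383 to 10610 CPM in the WT-labelled libraries and from 14670 to 16740 CPM in the KO-labelled ones, with 7 of the 10 called higher and the other 3 not called. Summed markers of other nephron and vessel cells were lower, without overlap, in the KO-labelled libraries: thick ascending limb from 2494 to 3093 against 3167 to 4221 CPM, distal convoluted tubule from 1227 to 1624 against 2197 to 2917, principal cells from 265.6 to 310.1 against 355.7 to 514.2, podocytes from 203.8 to 301.8 against 328.3 to 408.2, and endothelium from 212.6 to 264.8 against 271.7 to 361.7. Taken singly, 1 of 4 thick ascending limb markers, 1 of 3 of the distal convoluted tubule and 4 of 5 of principal cells were called lower. For podocytes 3 of 4 and for endothelium 2 of 5 were called lower, and no marker of these lists was called higher. Over all tested genes 16.8% were called higher and 12.9% lower, and the groups did not overlap for 38.5%. Summed markers of intercalated cells, fibroblasts, macrophages and lymphocytes overlapped between the groups. No marker of these cell types was at 0 in any library. In whole tissue, fewer cells of a type and less RNA per cell cannot be told apart, and the part of these shifts in the results below was not tested.

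In the libraries labelled knockout 4 of the 10 polyamine genes were higher (Odc1, Sms, Oaz1 and Oaz2), 3 were lower (Amd1, Srm and Sat1), and 3 were not called (Azin1, Smox and Paox). A gene was called at an adjusted p under 0.05 in edgeR's quasi-likelihood test with Benjamini-Hochberg adjustment over all 17964 genes. Every adjusted p below is from that test, unless another test, kind of value, or set of counts or libraries is named. Calls were common in this comparison: 29.7% of all tested genes were called, 16.8% higher and 12.9% lower, and among the 8978 genes averaging 10 CPM or more the share was 40.1%. The groups did not overlap for 8 of the 10 polyamine genes, against 38.5% of all tested genes and 48.6% of those averaging 10 CPM or more. The 10 were chosen with earlier results of these data known, so these shares describe them and do not test them as a set. The 10 had a median log2 fold change of 0.29, beside -0.01 over all tested genes. In size, Odc1 changed 6.88-fold, Amd1 1.88-fold, and no other member reached 1.5-fold. All 7 calls were kept when any of the 7 libraries was left out. Without WT-labelled replicate 3, the library that stood apart, the log2 values were 2.70 for Odc1, -1.01 for Amd1, -0.35 for Srm, 0.50 for Sms, 0.20 for Oaz1, 0.34 for Oaz2 and -0.47 for Sat1.

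**Figure D1:**
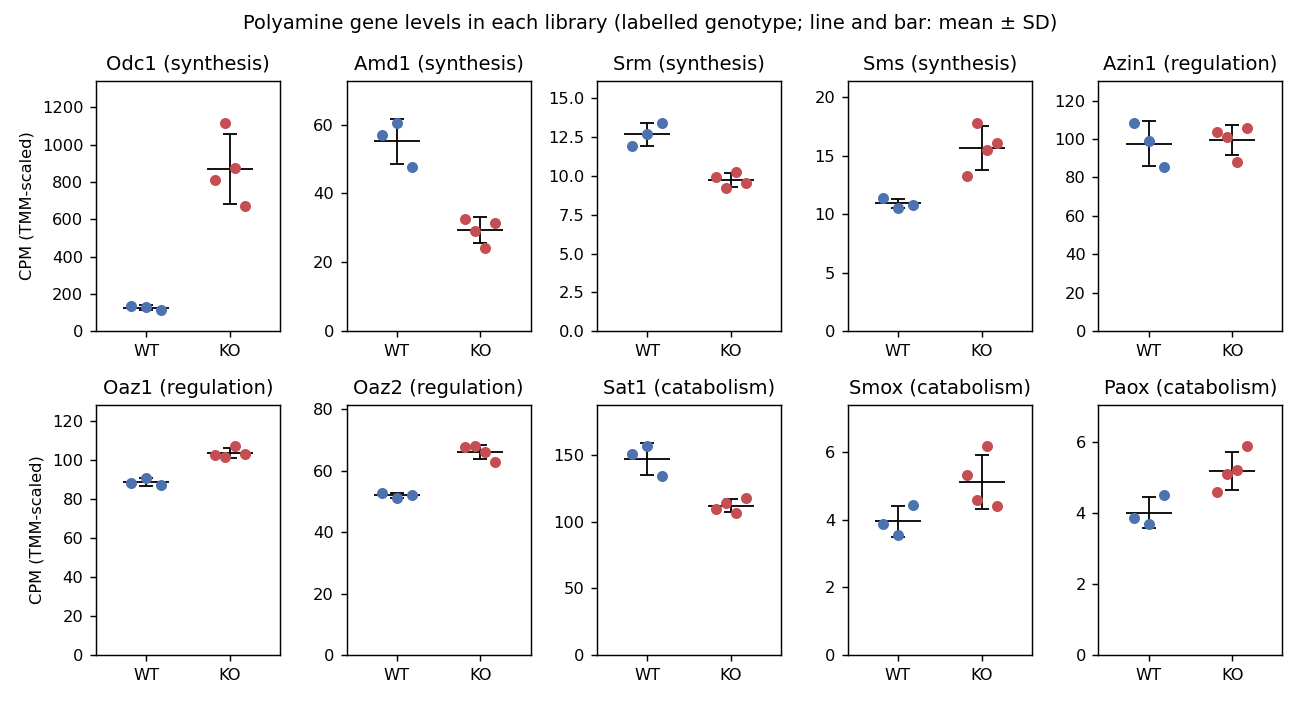
Level of each of the 10 polyamine genes in CPM (vertical axes from 0, a scale for each gene) in the 3 WT-labelled and 4 KO-labelled libraries; each point is a library, and the line and bar give the group mean ± SD. Odc1 stands between 112 and 138 CPM in the WT-labelled libraries and between 673 and 1118 CPM in the KO-labelled ones, while the groups of Azin1 and Smox overlap.

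Odc1 showed the largest difference of the 10 genes. Odc1 (ENSMUSG00000011179, mm10 chromosome 12, 17544794 to 17551505, plus strand) was at 138, 129 and 112 CPM in WT-labelled replicates 1 to 3 and at 809, 1118, 878 and 673 CPM in KO-labelled replicates 1 to 4. Every KO-labelled library was far above every WT-labelled one, with replicate 2 the highest and replicate 4 the lowest of that group. The mean was 126 ± 12.9 CPM (SD, n = 3) against 870 ± 186 CPM (SD, n = 4), a log2 fold change of 2.78 (SE 0.175, 95% interval 2.38 to 3.18, adjusted p = 4.46e-05). Among the 17964 tested genes Odc1 ranked 57th from the most increased, and 86th by the size of change in either direction. Its spread between libraries was also wider in the KO-labelled group, with a coefficient of variation of 21.4% against 10.2%. Leaving out each library in turn gave log2 values of 2.63 to 2.89. Set against the proximal tubule markers, Odc1 held 10.6 to 14.7 CPM per 1000 CPM of those markers in the WT-labelled libraries and 45.9 to 66.8 in the KO-labelled ones. The means were 12.7 ± 2.05 (SD, n = 3) and 55.7 ± 8.99 (SD, n = 4), a smaller relative gap than in CPM, though the ranges did not overlap. The part of the marker shift in the Odc1 difference was not tested.

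The sequence before the GENCODE start of Odc1 holds GC boxes, the sites bound by Sp-family factors. The 171 bases before that start, which is at 17544794, are printed because this gene changed most. They are the first part of its RefSeq promoter window (build GRCm38.p6, chr12:17544623-17544793, plus strand, 5′ to 3′). The RefSeq start of that window lies further downstream, and the bases next to it are not printed. The letters GGGCGG, or CCGCCC where the box lies on the other strand, are in capitals.
Odc1 upstream: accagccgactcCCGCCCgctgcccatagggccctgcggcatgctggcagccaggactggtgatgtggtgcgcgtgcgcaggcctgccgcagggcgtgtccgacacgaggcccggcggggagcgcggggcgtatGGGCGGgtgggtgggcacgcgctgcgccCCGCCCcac
There are 3 such matches. This hexamer is common, with at least 1 match in 35.7% of the 32851 promoter windows in the table. These windows are longer than the printed stretch (250 bases before to 50 after the RefSeq start, both strands). In windows of that length the hexamer occurred in 7 of the 8 members found in the promoter table (Amd1, Oaz2, Odc1, Paox, Sat1, Smox and Sms). Among them are genes that were higher, lower and not called. Srm and Azin1 had no entry in that table. The GC box search was added after seeing the data. The Odc1 window held no match to the other motifs searched, CACGTG among them. The short androgen site AGAACA was found in Oaz2 and Sat1, and TATAAA in Oaz1. The antioxidant response element core TGACNNNGC was found in Oaz1 and Smox. The full androgen response element and the cAMP response element TGACGTCA were found in 0 of the 8 members. These matches describe letters in a short window and say nothing of binding.

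Amd1, the enzyme that commits S-adenosylmethionine to polyamine synthesis, was lower in the KO-labelled libraries. Amd1 (ENSMUSG00000075232, chromosome 10, 40287458 to 40302186, minus strand) was at 57.0, 60.5 and 47.8 CPM in the WT-labelled libraries and at 32.6, 29.2, 24.2 and 31.4 CPM in the KO-labelled ones. The lowest WT-labelled library was above the highest KO-labelled one. The log2 fold change was -0.91 (SE 0.114, 95% interval -1.17 to -0.65, adjusted p = 0.000677), or 1.88-fold lower. Amd1 has a near-identical copy on the same chromosome, Amd2, with 99.6% identity over 3202 aligned bases, so reads may have been divided between them. The coding sequences are 1005 bases each and differ by a single substitution, G796C (Amd1 base, position counted from the start codon, Amd2 base), shown in capitals in the 50 coding bases from position 771 to 820 (GENCODE M21, 5′ to 3′).
Amd1: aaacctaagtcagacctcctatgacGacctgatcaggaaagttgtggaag
Amd2: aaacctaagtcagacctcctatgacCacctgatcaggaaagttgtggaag
Counted separately, Amd2 was at 18.3, 18.7 and 16.9 CPM against 9.84, 8.96, 9.14 and 7.54 CPM (log2 fold change -1.02, SE 0.0952, adjusted p = 0.000158). With all near-identical copies added, the Amd1 total was 82.2, 86.4 and 71.4 CPM against 47.3, 41.1, 37.0 and 42.6 CPM, a log2 fold change of -0.93 (SE 0.0933, adjusted p = 0.00022). The direction and call were the same for Amd1 alone, for Amd2 alone and for the sum.

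The aminopropyl transferases moved in opposite directions and by small amounts. Srm, which makes spermidine (ENSMUSG00000006442, chromosome 4, 148591503 to 148594993, plus strand), was at 11.9, 12.7 and 13.4 CPM in the WT-labelled libraries and at 9.94, 9.21, 10.3 and 9.51 CPM in the KO-labelled ones. Its groups did not overlap (log2 fold change -0.38, SE 0.0758, adjusted p = 0.00561). Sms, which makes spermine from spermidine (ENSMUSG00000071708, chromosome X, 157443855 to 157492287, minus strand), was at 11.4, 10.6 and 10.8 CPM against 13.2, 17.8, 15.5 and 16.1 CPM. Here every KO-labelled library was the higher (log2 fold change 0.52, SE 0.101, adjusted p = 0.0049). Per unit of length and without copies, Srm was 4.37 ± 0.375 times Sms (SD, n = 3) in the WT-labelled group and 2.37 ± 0.376 times Sms (SD, n = 4) in the other. A processed copy, Sms-ps, matches Sms at 100% over 1101 bases and had its own counts, at 6.82, 7.14 and 6.70 against 10.3, 12.3, 11.8 and 10.5 CPM (log2 fold change 0.71, adjusted p = 0.000695). Added to its copies, Sms kept its call (log2 fold change 0.60, adjusted p = 0.00112).

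Sms was the only member of the 8 in the promoter table to hold CACGTG in its window, the palindromic E-box bound by Myc and Max. This hexamer was found in 7.15% of all windows. The windows run from 250 bases before to 50 after the start, and sites elsewhere in Odc1 or any other member were not searched. The stretch around the Sms match is printed with the hexamer in capitals (GRCm38.p6, chrX:157492454-157492507, minus strand, 5′ to 3′).
Sms E-box: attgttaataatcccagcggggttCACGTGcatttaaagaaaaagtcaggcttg
Myc transcripts, given below with the other regulators, were lower in the libraries in which Sms was higher. Binding at this site was not measured, and a link between Myc and Sms was not tested.

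Both antizymes were higher in the KO-labelled libraries, with tight spread. Oaz1 (ENSMUSG00000035242, chromosome 10, 80826656 to 80829290, plus strand) was at 88.3, 90.6 and 87.0 CPM in the WT-labelled libraries and at 102.4, 101.4, 106.8 and 103.0 CPM in the KO-labelled ones. The difference was small, 1.17-fold (log2 fold change 0.22, SE 0.0524, adjusted p = 0.0119), and larger than the spread within either group. Oaz2 (ENSMUSG00000040652, chromosome 9, 65668001 to 65690300, plus strand) was at 52.8, 51.1 and 52.0 CPM against 67.7, 67.9, 66.2 and 63.0 CPM, 1.27-fold higher (log2 fold change 0.35, SE 0.0539, adjusted p = 0.00173). A processed copy, Oaz1-ps, is 99.3% identical to Oaz1 over 685 bases and ranged from 24.2 to 39.8 CPM with no call (log2 fold change 0.15, adjusted p = 0.542). Oaz1 together with this copy was still called higher (log2 fold change 0.20, adjusted p = 0.0373).

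Antizyme protein is made only when the ribosome shifts frame at a stop codon, a step that polyamines stimulate, so transcript levels do not give the amount of protein. The shift sites are printed because they are what this family shares (GENCODE M21 transcripts on GRCm38, 30 bases each, 5′ to 3′), with the last codon of the first frame and the stop codon it meets in capitals.
Oaz1 shift site, chr10:80828280-80828309: cctcggtggtgcTCCTGAtgtccctcaccc
Oaz2 shift site, chr9:65686257-65686286: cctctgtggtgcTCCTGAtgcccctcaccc
The sites were identical at 28 of 30 bases. Shifting of frame was not measured by these libraries.

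Azin1, the catalytically inactive homologue of ornithine decarboxylase that frees it from antizyme, was not called. Azin1 (ENSMUSG00000037458, chromosome 15, 38487427 to 38519266, minus strand) was at 109, 98.9 and 85.3 CPM in the WT-labelled libraries and at 104, 101, 87.9 and 106 CPM in the KO-labelled ones. The groups overlapped, and the log2 fold change was 0.03 (SE 0.0943, 95% interval -0.18 to 0.24, adjusted p = 0.84), so the interval leaves room for small changes in either direction. The sign turned without WT-labelled replicate 3 (-0.07, adjusted p = 0.586). Per unit of length and without copies, the ratio of Azin1 to Oaz1 was 0.450 ± 0.0509 (SD, n = 3) and 0.394 ± 0.0388 (SD, n = 4), with overlapping libraries.

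**Figure D2:**
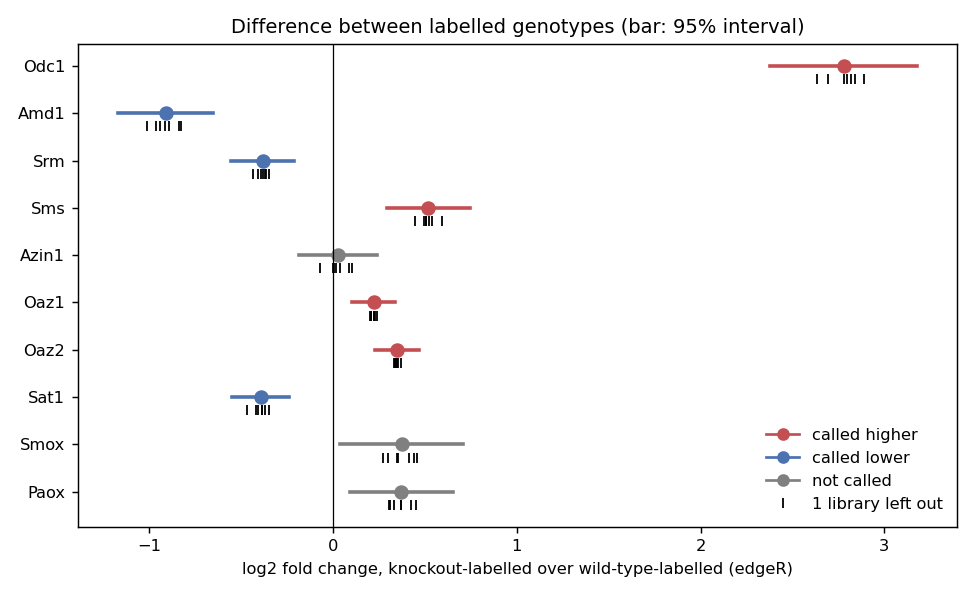
Log2 fold change (KO-labelled over WT-labelled, horizontal axis) of the 10 polyamine genes with 95% intervals; colour shows the call, and the ticks under each gene show the fits with a library left out. Odc1 lies at 2.78, Amd1 at -0.91, and the other 8 between -0.39 and 0.52, with the interval of Azin1 crossing 0.

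Of the genes of catabolism, Sat1 was called and the oxidases were not. Sat1, the acetyltransferase that marks spermidine and spermine for export or oxidation (ENSMUSG00000025283, chromosome X, 155213132 to 155216449, minus strand), was at 151, 156 and 134 CPM in the WT-labelled libraries and at 110, 114, 107 and 118 CPM in the KO-labelled ones. The groups did not overlap, and Sat1 was 1.31-fold lower (log2 fold change -0.39, SE 0.07, adjusted p = 0.00334).

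Smox, which oxidises spermine directly (ENSMUSG00000027333, chromosome 2, 131491496 to 131525922, plus strand), was at 3.87, 3.54 and 4.45 CPM against 5.34, 4.58, 6.18 and 4.40 CPM. Its groups overlapped and it was not called (log2 fold change 0.37, SE 0.148, 95% interval 0.04 to 0.71, adjusted p = 0.0872). Paox, which oxidises acetylated polyamines in peroxisomes (ENSMUSG00000025464, chromosome 7, 140115799 to 140137224, plus strand), was at 3.86, 3.68 and 4.50 CPM against 4.59, 5.09, 5.20 and 5.88 CPM. Its groups were separated only narrowly (log2 fold change 0.37, SE 0.125, 95% interval 0.09 to 0.65, adjusted p = 0.0502). These genes rest on 265 to 534 counts per library, the fewest of the 10.

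The Paox value depended on how it was measured. It was called higher with DESeq2 (adjusted p = 0.0308), with limma-voom (0.0327), and with edgeR after WT-labelled replicate 3 (0.0318) or KO-labelled replicate 1 (0.0415) was left out, and it had the opposite sign in the deposited normalized values (-0.12, adjusted p = 0.708). A predicted gene, Gm19680, is 99.9% identical to Paox over 1358 bases, and with its reads added the log2 fold change was 0.18 (adjusted p = 0.231). Paox also overlaps Echs1 on the opposite strand, an abundant gene at 115 ± 2.17 CPM (SD, n = 3) and 124 ± 5.29 CPM (SD, n = 4), and whether strand was used in counting is not given in the sources used here.

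**Figure D3:**
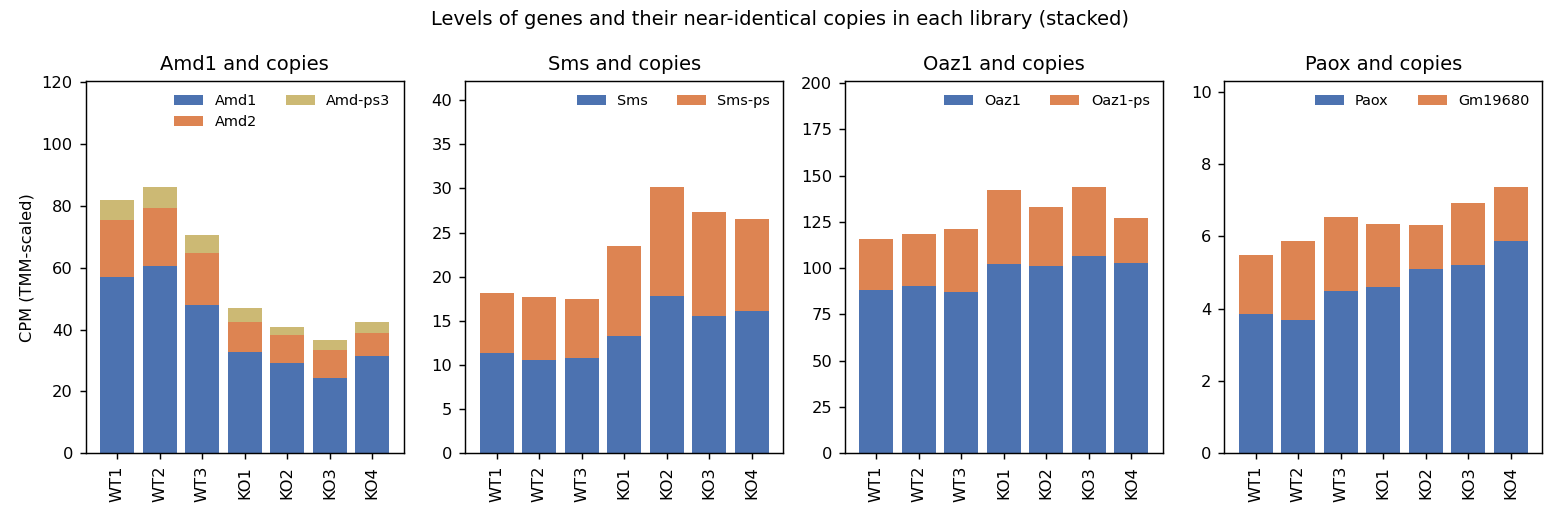
Stacked levels in CPM (from 0) of Amd1, Sms, Oaz1 and Paox with their near-identical copies in each of the 7 libraries. The Amd1 stacks are lower in every KO-labelled library (37.0 to 47.3 CPM against 71.4 to 86.4), and the Sms stacks are higher.

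Set per kilobase of exon, the scale on which genes can be compared with each other, Odc1 moved from the second place to the first and Sat1 from the first to the third. In the WT-labelled group the mean levels in CPM per kilobase were 53.0 for Sat1, 37.1 for Odc1, 34.7 for Oaz1, 17.4 for Oaz2, 15.6 for Azin1, 15.6 for Amd1, 7.93 for Srm and 1.82 for Sms, with Smox and Paox lowest (ratio of Smox to Paox 1.24 ± 0.0256). On their own counts, Odc1 and Oaz1 did not differ beyond their spread there, with a ratio of 1.07 ± 0.101 (SD, n = 3), nor did Azin1 and Amd1. These levels leave out near-identical copies. With copies added, Oaz1 totalled 115.6, 118.7 and 121.4 CPM in WT-labelled replicates 1 to 3, and Amd1 82.2, 86.4 and 71.4 CPM. Both totals were above the gene's own level, so places in this order can change with copies, which was not examined. In the KO-labelled group the order was Odc1 at 255, then Oaz1 at 40.4 and Sat1 at 40.3, Oaz2 at 22.1, Azin1 at 15.9, Amd1 at 8.29, Srm at 6.08 and Sms at 2.61 CPM per kilobase. Oaz1 and Sat1 were neighbours within their spread on their own counts. With lengths of the longest transcript the order of these 2 was exchanged, and with the longest coding transcript Oaz1 stood above Odc1 in the WT-labelled group (82.8 against 57.3 CPM per kilobase). Odc1 was first in the KO-labelled group with each of the 3 lengths.

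**Figure D4:**
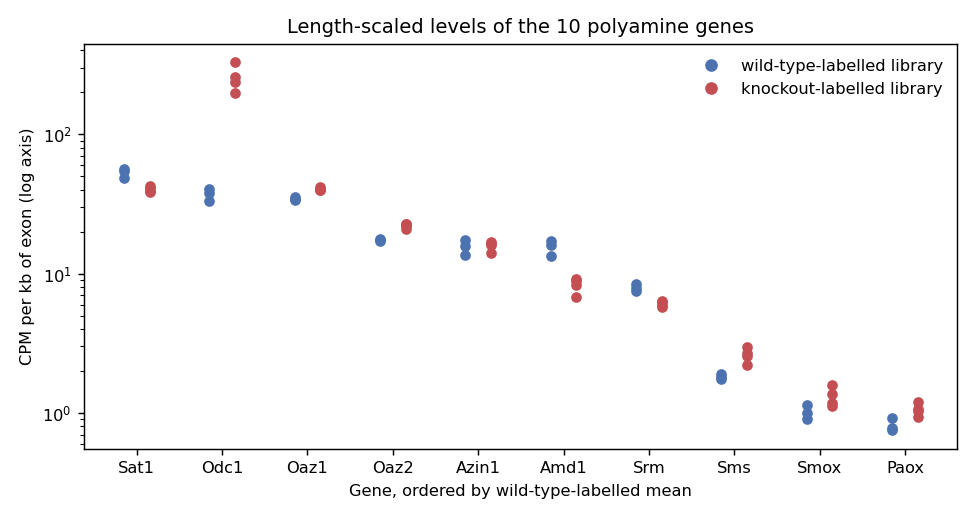
Level of the 10 polyamine genes in CPM per kilobase of exon (log axis) in each library, ordered by the WT-labelled mean. The mean of Odc1 goes from 37.1 to 255 CPM per kilobase, above all 9 other genes, and that of Sat1 from 53.0 to 40.3.

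The balance between the genes shifted with Odc1. Odc1 made up 20.1% ± 0.984 (SD, n = 3) of the summed CPM per kilobase of the 10 genes in the WT-labelled group and 64.4% ± 4.94 (SD, n = 4) in the KO-labelled group. Its ratio to Oaz1 was 1.17, 1.07 and 0.971 in the WT-labelled libraries and 5.94, 8.29, 6.17 and 4.91 in the KO-labelled ones. Its ratio to Sat1 went from 0.701 ± 0.0387 to 6.35 ± 1.39, and its ratio to Amd1 from 2.39 ± 0.156 to 31.4 ± 8.67. The ratios depend on the lengths used: with longest coding transcripts the ratio of Odc1 to Sat1 was 0.453 ± 0.025 and 4.10 ± 0.901, and that of Odc1 to Oaz1 was 0.692 ± 0.0651 and 4.08 ± 0.915, while the change between the groups stays the same by construction. The levels of Sat1 and Oaz1 in the KO-labelled group were then 96.3 and 96.6 CPM per kilobase. These shares and ratios rest on each gene's own counts, without near-identical copies. They describe transcripts only, since ornithine decarboxylase is controlled largely through its breakdown.

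The genes around the pathway were examined in 6 lists of 41 genes, of which 36 could be tested. Of these, 14 were higher, 7 lower and 15 not called, beside 29.7% called, 16.8% higher and 12.9% lower, over all tested genes. The median over the 36 was 0.12 on the log2 scale. These lists too were chosen with earlier results of these data known. The count of higher genes fell to 9 without any of WT-labelled replicates 1 and 2 and KO-labelled replicates 2 and 3.

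In the list of genes that make or use arginine, agmatine, ornithine and S-adenosylmethionine, 6 of 8 tested genes were higher and the other 2 not called, while Arg1, Otc and Mat1a had too few counts to test. The count of higher genes was 4 without any of WT-labelled replicates 1 and 2 and KO-labelled replicates 1, 2 and 3: the calls of Asl and Agmat, both named after their values were seen, held in 2 and 1 of the 7 fits with a library left out (adjusted p up to 0.0826 and 0.155). Ass1, which makes argininosuccinate on the way to arginine, went from 615 ± 65.3 to 1099 ± 61.9 CPM (SD, n = 3 and n = 4), 1.79-fold higher (adjusted p = 0.000315). Gatm, which uses arginine to make the creatine precursor, went from 125 ± 66.8 to 469 ± 112 CPM, 3.74-fold higher (adjusted p = 0.0115). Mat2a and Mat2b, the catalytic and regulatory subunits of the enzyme that makes S-adenosylmethionine, were 1.44-fold and 1.25-fold higher (adjusted p = 0.0123 and 0.0117). Arg2, the mitochondrial arginase that releases ornithine, was named after its values were seen: it was at 8.49 ± 1.59 and 3.73 ± 2.54 CPM (log2 fold change -1.18, adjusted p = 0.134). Its groups did not overlap, and it was called lower without KO-labelled replicate 4 (-1.69, adjusted p = 0.0203) and with limma-voom (-1.53, adjusted p = 0.0383). As given above, the summed proximal tubule markers were also higher in the KO-labelled libraries. The part of this shift in this list, or in the others, was not tested.

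Transport genes were divided, with 3 of 9 higher, 2 lower and 4 not called. Slc22a2, an organic cation transporter of the tubule, was 2.17-fold higher (82.0 ± 7.93 to 178 ± 10.1 CPM, adjusted p = 5.8e-05). The cationic amino acid transporters that bring in arginine and ornithine moved apart: Slc7a2 was 3.54-fold higher (2.10 ± 0.606 to 7.45 ± 1.56 CPM, adjusted p = 0.000649) and Slc7a1 2.05-fold lower (19.5 ± 0.375 to 9.51 ± 1.63 CPM, adjusted p = 0.000462). Slc3a2, the shared heavy chain of amino acid exchangers, was 1.35-fold lower (adjusted p = 0.00737).

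Downstream of the pathway, spermidine donates the group that turns a lysine of the translation factor Eif5a into hypusine, and methylthioadenosine left over from the aminopropyl transfers is salvaged to methionine. Of the 4 hypusine genes 0 were called by edgeR (1 at an unadjusted p under 0.05) and 0 by DESeq2. Dohh was called higher by limma-voom (adjusted p = 0.0361), and by edgeR with 1 surrogate variable (0.0376), without WT-labelled replicate 3 (0.0491) and without KO-labelled replicate 4 (0.0393). Eif5a had a log2 fold change of 0.13 (adjusted p = 0.177) and the hydroxylase Dohh 0.23 (adjusted p = 0.0528). Of the 5 salvage genes, Adi1 was 1.58-fold lower (45.6 ± 5.30 to 28.9 ± 1.78 CPM, adjusted p = 0.000718), and Mtap and Apip were higher by 1.18-fold and 1.25-fold (adjusted p = 0.0292 and 0.0328). The Mtap call held in 2 of the 7 fits with a library left out and the Apip call in 0 of 7. Among further enzymes and paralogues, Azin2 was 1.50-fold higher (2.88 ± 0.353 to 4.33 ± 0.346 CPM, adjusted p = 0.009) and Sat2, a relative of Sat1 by name, was 1.62-fold higher (3.80 ± 0.672 to 6.18 ± 0.882 CPM, adjusted p = 0.0103). Oaz3 and Satl1 had too few counts to test.

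Of 6 genes for transcription factors examined with the pathway, 3 were lower, 1 was higher and 2 were not called. Myc, a well-known activator of Odc1, was at 9.78 ± 0.5 CPM (SD, n = 3) and 4.20 ± 1.02 CPM (SD, n = 4), 2.33-fold lower (adjusted p = 0.000981). Its partner Max was 1.38-fold lower (adjusted p = 0.00223), and Mxi1, which competes with Myc for Max, was 1.15-fold higher (adjusted p = 0.0217, held in 2 of 7 fits with a library left out). Nfe2l2, the oxidative stress response factor, was 1.63-fold lower (94.7 ± 6.95 to 58.1 ± 2.82 CPM, adjusted p = 0.000179). Myc and Odc1 transcripts differed in opposite directions between these groups. Myc protein and its binding were not measured, and a link between Myc and Odc1 was not tested.

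**Figure D5:**
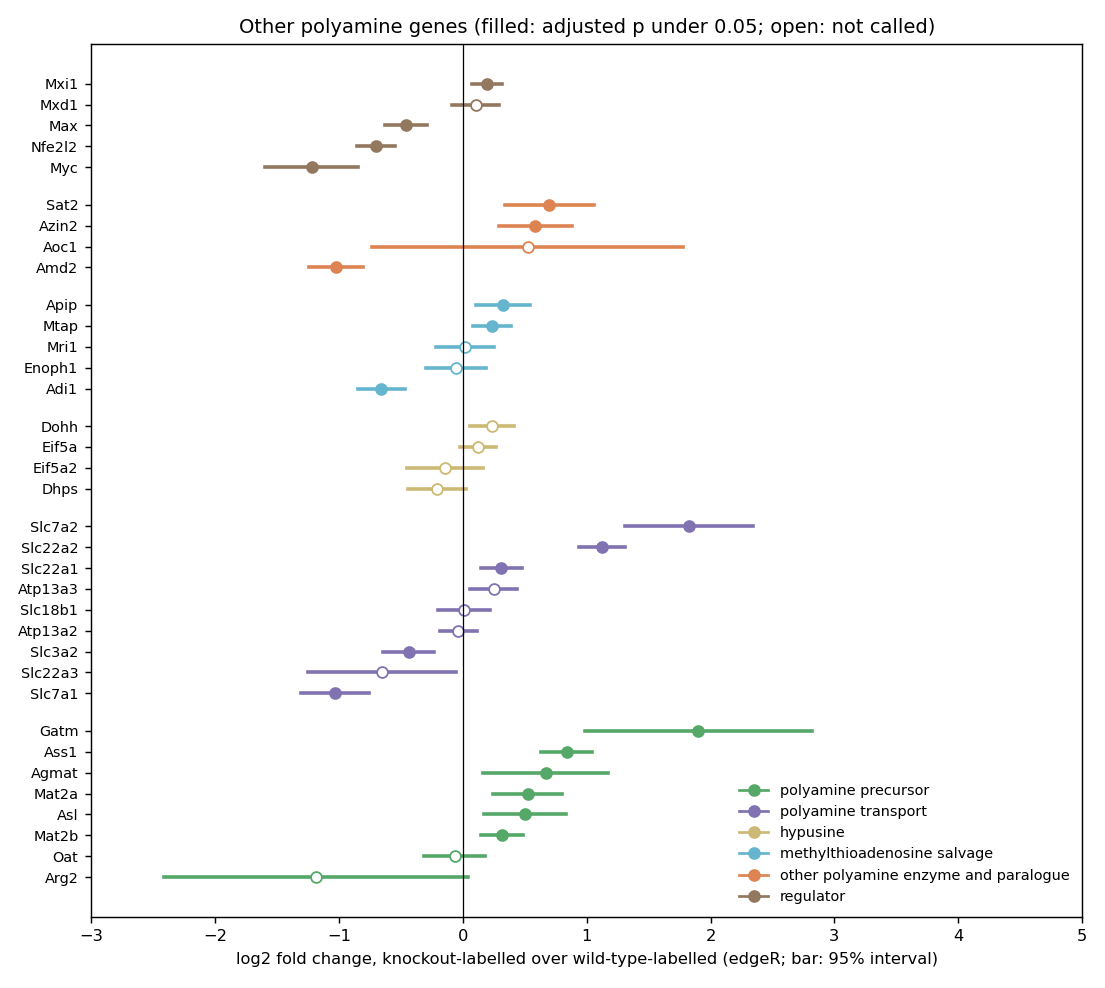
Log2 fold change with 95% intervals of tested genes around the pathway, coloured by list (filled where called). Gatm (1.90) and Slc7a2 (1.83) are highest, and Myc (-1.22) and Arg2 (-1.18) are lowest, the last with an interval crossing 0.

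The genes whose profile over the 7 libraries was closest to that of Odc1 were found by the root mean square difference between centred log2 CPM profiles, among 12722 tested genes averaging 1 CPM or more with a symbol that is not a predicted model. The 5 closest were Gfra1 (0.27), Hist1h3a (0.27), Tmprss9 (0.28), Ces2b (0.29) and Kap (0.29). Since the profile of Odc1 is set mainly by the gap between the groups, these are genes with a gap of like size: 5.48-fold for Gfra1, 6.23-fold for Hist1h3a, 8.90-fold for Tmprss9, 5.44-fold for Ces2b and 4.96-fold for Kap. Hist1h3a and Tmprss9 averaged 0.464 and 0.321 CPM in the WT-labelled group and 2.89 and 2.86 CPM in the KO-labelled group. Both passed the limit of 1 CPM only through the KO-labelled libraries, and their fold changes rest on few WT-labelled counts (25 to 42 and 22 to 27 per library). Kap, the kidney androgen-regulated protein of proximal tubule cells, was at 1978, 1875 and 1301 CPM in the WT-labelled libraries and at 7460, 9317, 8636 and 8665 CPM in the KO-labelled ones. KO-labelled replicate 2 was the highest library for Odc1, Gfra1, Ces2b and Kap, replicate 3 for Hist1h3a and replicate 4 for Tmprss9. Ces2b (104831572 to 104840093) lies on chromosome 8 near Cdh11 (102632095 to 102785642), and whether this position plays a part was not tested.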

How the data were processed

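Total RNA of 7 whole kidneys was made into directional libraries, per the labels' protocols. The authors' expected counts per gene, deposited as whole numbers, were the basis of every main value. The deposited normalized values, a signal in which counts are multiplied by factors that differ between genes, served only as an alternative. DRAGEN, DESeq2 and the build mm10 are listed per the submitters' processing notes, and versions, annotation release and strand setting are not given in the sources used here. No column belonged to other samples.

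Counts were filtered with filterByExpr, scaled by TMM and tested 2-sided with edgeR 4.0.16 (robust quasi-likelihood test, R 4.3.3) between the labelled groups, without covariates. The common dispersion was 0.0231. Libraries differed from each other by more than sampling noise in all 21 pairs. Lengths and positions came from GENCODE M21 (GRCm38) and promoter windows from RefSeq. Near-identical copies were found with BLAST 2.17.0 (at least 95% identity over at least 400 bases on the same strand). Tables used Python 3.11.15 and pandas 2.3.3.

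Alternatives were other scalings and filters, 1 surrogate variable (sva 3.50.0), DESeq2 1.42.0, limma-voom and limma-trend (limma 3.58.1, the latter on log2 of deposited value plus 1), and each library left out. The limma-voom fit used quality weights for libraries, so a library that stands apart counts for less in it. Added after seeing the data were fits without mitochondrial transcripts, on protein-coding genes only and with copies summed, lengths of the longest coding transcript, ratios on those lengths, counts of precursor genes with a library left out, and the GC box search. The members and lists were chosen with earlier results of these data known. Genes named beyond the members were Cdh11, in each list the 4 called genes of smallest adjusted p at most (in a list with no call, its 2 most abundant genes), and the 5 genes most like Odc1. A gene of these lists is not reported here.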

Additional observations from a re-analysis of the deposited data

Results flagged for a closer look

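A library stood far from the other 3 of its group for Mat2a and for Apip. Mat2a in KO-labelled replicate 2 lay above the others by 0.840 of the whole range of the group, and Apip in KO-labelled replicate 1 lay above the others by 0.896 of it, both past the critical value of Dixon's test for 4 libraries. In all, 30 genes of the KO-labelled group were looked at in this way, and chance marks about 1 group in 20.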

How the results depend on the processing

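Each member was refitted under 19 alternatives, and the calls and directions of Odc1, Amd1, Srm, Sms, Oaz1, Oaz2 and Sat1 held in all 19, with log2 fold changes of 2.58 to 2.89 for Odc1 and -1.01 to -0.83 for Amd1. Azin1 changed sign with limma-voom (-0.0403), in the deposited normalized values (-0.0249) and without WT-labelled replicate 3 (-0.0679), and Paox changed sign in the deposited normalized values (-0.124), all without a call. With each library left out, Azin1 ranged from -0.0679 to 0.103. The cause was not tested. Of the 10 members, 4 or 5 were higher and 3 lower in every fit. The number of pathway genes called higher was 9 without the low-count filter, and 9 to 12 with each library left out, where fewer samples remain. The Mtap and Mxi1 calls were lost in 7 alternatives each and the Apip call in 9. With the longest transcript, 2 members exchanged places in the order of levels in the KO-labelled group. Over all genes, leaving out a library gave 3804 to 5300 calls, against 5327. At this depth Smox and Paox, with 265 to 534 counts per library, are the least precise. The labels give no pairing between libraries, so the groups were compared unpaired, and the replicate numbers used here only follow the order of deposit.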
